A study of Mus musculus with 12 samples.

Results

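Secreted cytokines, a cytokine-binding protein and a receptor chain were followed in cultured mouse OPCs (oligodendrocyte precursor cells), which divide and can mature into the myelin-forming cells of the brain. The genes were Il18bp, Il18, Il15, Il15ra, Il33, Il34, Il6, Tnf, Lif and Csf1, which are 10 of the 55536 genes in the quantified transcriptome. The genes were selected by name, with their measured levels in these libraries already known, so the values of the 10 genes are given as a description and not as a test. Estimated reads of all annotated transcripts were summed for each gene, and libraries were compared by their treatment and by their replicate number.

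OPCs came from pooled brains of Sox10:Cre-RCE:LoxP(EGFP) pups of both sexes, aged P4 to P6. In this line the Sox10 promoter drives Cre, which switches on EGFP throughout the oligodendrocyte lineage, and the parental backgrounds were C57BL/6j and C57BL/6xCD1. Cells were isolated as Sox10GFP+ cells by flow sorting or with CD140a magnetic beads, and the labels do not say which method served which library. All cultures grew with PDGFaa and bFGF. Ctr-OPCs received no further treatment, Dexa-treated OPCs received 1 µM dexamethasone, a synthetic glucocorticoid, and IFN-γ-treated OPCs received 100 ng/ml IFN-γ, the type II interferon, each for 48 h. The labels list EAE (experimental autoimmune encephalomyelitis) as the mouse model of these libraries, whereas the growth protocol describes cultured pup cells. Each group had 4 replicates from different litters. The table of Dexa replicate 3 ended after 33.7% of its transcripts, so 4 Ctr, 3 Dexa and 4 IFNg libraries were compared.

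Depth ranged from 19209059 reads in genes (Dexa replicate 4) to 52074655 (Ctr replicate 2). OPC markers were abundant in every library, with a summed normalized count (reads divided by the DESeq2 size factor of the library) for 8 markers of 182700 to 419200 in Ctr-OPCs, 203700 to 463000 in Dexa-treated OPCs and 124900 to 292100 in IFN-γ-treated OPCs. Of 13 microglia and macrophage markers, 2 had enough reads to be tested. Their summed normalized count was 18.4 to 54.5 in Ctr-OPCs and 36.8 to 61.6 in IFN-γ-treated OPCs. The 8 lymphocyte markers summed to at most 11.9 in any library. All 8 astrocyte markers were detected, at 19000 to 51570 in Ctr-OPCs, 39260 to 66210 in Dexa-treated OPCs and 35580 to 52290 in IFN-γ-treated OPCs. Libraries with replicate number 1 stood apart for some of the genes, as given with their values. In bulk RNA, fewer cells of a type and less RNA per cell cannot be told apart.

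Cytokines act through receptors on the receiving cell, and several have soluble partners that keep them from those receptors. IL-18, an IL-1 family cytokine released after cleavage by inflammatory caspases, is neutralised by IL-18 binding protein, a secreted decoy that interferons are known to induce in other cells. IL-15 is carried to the cell surface by its own receptor α chain and shown to neighbouring lymphocytes, while CSF1 and IL-34 share the receptor CSF1R on microglia and macrophages.

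Il18bp, the gene of the IL-18 decoy, had the largest log2 fold change under IFN-γ, and the smallest standard error, of the 8 genes with enough reads. It lies on chromosome 7 from 102014885 to 102018690 on the minus strand (GRCm38, ENSMUSG00000070427) and overlaps Numa1 on the opposite strand. Normalized counts were 218, 205, 218 and 198 in Ctr-OPC replicates 1 to 4 and 223, 193 and 210 in Dexa replicates 1, 2 and 4. In IFN-γ-treated OPCs they were 3066, 2822, 3061 and 2795. Every IFN-γ library was thus far above all others, and the Dexa libraries overlapped with the Ctr libraries. The log2 fold change was 3.81 ± 0.08 (SE, DESeq2, n = 4 and 4) for IFNg against Ctr and -0.01 ± 0.11 (n = 3 and 4) for Dexa against Ctr. Within replicate numbers the IFN-γ library held between 13.8 and 14.1 times the normalized count of its Ctr partner.

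The transcripts to which Il18bp reads were assigned also differed between the groups. Il18bp-202 (ENSMUST00000209368) has 4 exons, and its first and last exons run over 3 stretches of 245, 472 and 207 bases that are introns in Il18bp-201 (ENSMUST00000094134). Il18bp-202 took 71.9%, 66.2%, 73.2% and 76.0% of the gene's estimated reads in Ctr-OPC replicates 1 to 4. It took 13.8%, 14.8%, 15.6% and 15.9% in IFN-γ-treated OPCs. The groups did not overlap. The mean share was 71.8% ± 4.15 (SD, n = 4) in Ctr-OPCs and 15.02% ± 0.953 (SD, n = 4) under IFN-γ, a difference of -56.8 percentage points (two-sided exact permutation test over libraries, p = 0.0286, the smallest that 4 against 4 libraries allow, and adjusted p = 0.0857 over the 3 genes with enough reads). In Dexa-treated OPCs the share was 67.4%, 67.3% and 82.0%, overlapping with Ctr-OPCs.

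Il18bp-201, with 7 spliced exons, took most reads under IFN-γ. It was assigned 0 to 3.60% of the Il18bp reads in Ctr-OPCs, 0 to 1.69% in Dexa-treated OPCs and 54.7% to 60.6% in IFN-γ-treated OPCs. Il18bp-203 (ENSMUST00000209844), which encodes the same coding sequence as Il18bp-201, kept a similar share, between 23.2% and 31.2% in Ctr-OPCs and between 25.6% and 29.4% in IFN-γ-treated OPCs. Reads on Il18bp-202 themselves were more numerous under IFN-γ, at 425, 442, 410 and 346 estimated reads against 170, 218, 232 and 138 in Ctr-OPCs. The libraries were made from total RNA, and unspliced Il18bp RNA cannot be told apart here from Il18bp-202.

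The annotated proteins of Il18bp-201 and Il18bp-202 share their first 492 coding bases and part at the last coding exon, where Il18bp-201 splices and Il18bp-202 reads on. The ends are shown because the shares of these 2 transcripts differed between Ctr and IFN-γ. Il18bp-203, with the coding sequence of Il18bp-201, already held 23.2% to 31.2% of the reads in Ctr-OPCs. Each run is read 5′ to 3′ from the GENCODE M21 transcript, with the last 30 shared coding bases in lower case (chr7:102016043-102016072, minus strand) and the bases that differ, up to and including the stop codon, in capitals. The capitals lie at chr7:102015746-102015835 for Il18bp-201 and at chr7:102015950-102016042 for Il18bp-202.
Il18bp-201: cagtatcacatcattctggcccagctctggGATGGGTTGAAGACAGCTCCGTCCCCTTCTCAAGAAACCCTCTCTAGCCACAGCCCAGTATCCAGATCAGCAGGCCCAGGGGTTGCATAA
Il18bp-202: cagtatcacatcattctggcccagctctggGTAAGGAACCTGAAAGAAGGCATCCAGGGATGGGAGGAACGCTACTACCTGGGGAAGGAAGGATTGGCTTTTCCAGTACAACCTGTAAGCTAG
The divergent end held 90 bases in Il18bp-201 and 93 in Il18bp-202, so that the annotated coding sequences differ by 1 codon in length (193 and 194 codons) and by their whole last stretch.

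**Figure D1:**
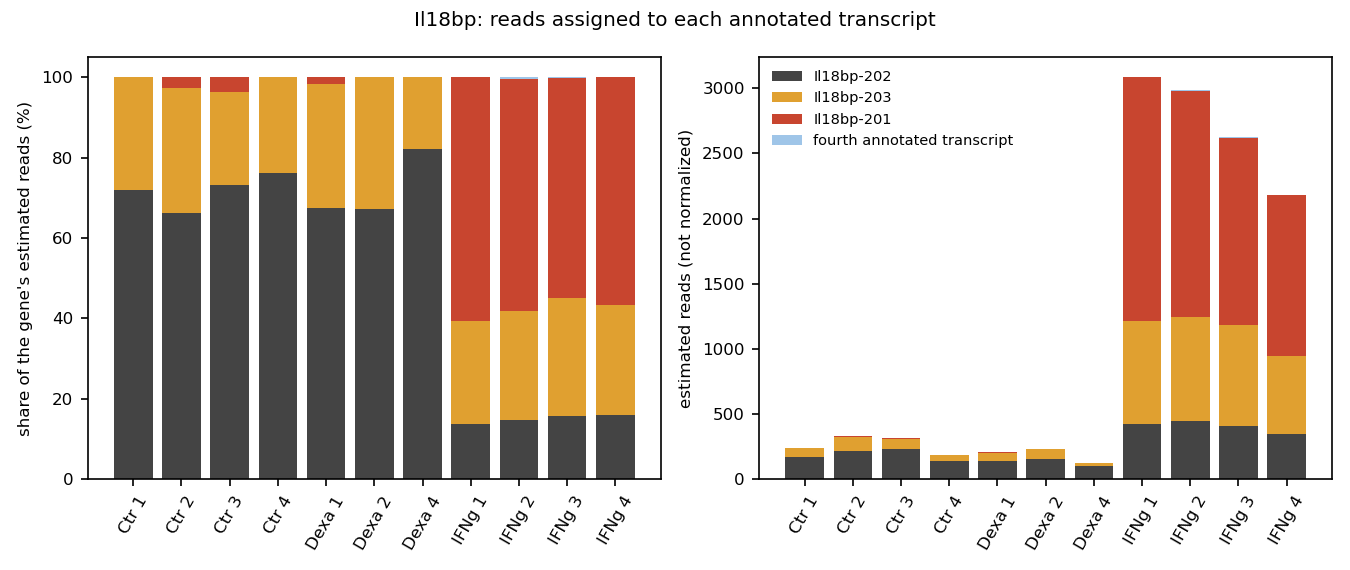
Estimated reads of Il18bp in each of 11 libraries, split by annotated transcript, as a percentage of the gene's reads (left) and as reads that are not normalized (right). Il18bp-202 (dark) takes 66.2% to 76.0% of the reads in the Ctr libraries and 13.8% to 15.9% in the IFNg libraries, where Il18bp-201 (red) takes 54.7% to 60.6%.

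Il18, the ligand that the decoy binds, had similar levels in all 3 groups. The gene lies on chromosome 9 from 50554827 to 50581840 (plus strand, ENSMUSG00000039217) and overlaps Bco2 and Tex12 on the opposite strand. Normalized counts were 508, 579, 701 and 807 in Ctr-OPCs, 530, 747 and 868 in Dexa-treated OPCs and 553, 619, 731 and 740 in IFN-γ-treated OPCs. Replicate 1 was lowest in each group, and the 3 groups overlapped. The log2 fold change was 0.03 ± 0.20 (SE) for IFNg and 0.14 ± 0.22 for Dexa. The transcript with most Il18 reads in Ctr-OPCs, ENSMUST00000214117, held 40.7% ± 5.02 (SD, n = 4) of them there and 48.7% ± 2.85 (SD, n = 4) under IFN-γ (exact permutation test, p = 0.0571, adjusted p = 0.0857).

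Per transcript length, the order of decoy and ligand turned over between the groups. TPM (transcript abundance scaled for length and for the library total) of Il18bp over that of Il18 was 0.0743 to 0.130 in the 4 Ctr libraries, 0.0731 to 0.131 in the 3 Dexa libraries and 1.80 to 2.75 in the 4 IFNg libraries. The TPM ratio rests in part on the transcripts chosen for Il18bp, since shorter transcripts give a higher TPM for the same reads. The TPM of the decoy was below that of the ligand in each Ctr and Dexa library and above it in each IFN-γ library.

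Il15, a cytokine that sustains natural killer cells and memory CD8 T cells, was scarce without IFN-γ. The gene lies on chromosome 8 from 82331632 to 82403222 (minus strand, ENSMUSG00000031712). Normalized counts were 17.4, 7.44, 2.75 and 5.43 in Ctr-OPCs, from 4 to 19 reads. They were 15.1, 10.9 and 17.5 in Dexa-treated OPCs and 39.7, 40.6, 32.6 and 56.5 in IFN-γ-treated OPCs. The IFN-γ libraries lay above all others, while Dexa overlapped with Ctr. This gave a log2 fold change of 2.38 ± 0.46 (SE) for IFNg and 0.81 ± 0.53 for Dexa. Without Ctr replicate 1, the highest Ctr library, it was 3.01 for IFNg and 1.43 for Dexa, and over all alternatives it ran from 2.07 to 3.04 and from 0.49 to 1.43. At these read numbers counting error is large, and the ratio to the Ctr partner ran from 2.28 in replicate 1 to 11.8 in replicate 3.

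Il15ra, the chain that presents IL-15, had a higher TPM than its ligand in every library. It lies on chromosome 2 from 11705290 to 11734317 (plus strand, ENSMUSG00000023206). Normalized counts were 162, 81.2, 88.8 and 79.3 in Ctr-OPCs, 148, 88.4 and 83.9 in Dexa-treated OPCs and 387, 393, 361 and 435 in IFN-γ-treated OPCs. Replicate 1 was the highest in Ctr and in Dexa, and every IFN-γ library exceeded all of them. The log2 fold change was 1.94 ± 0.27 (SE) for IFNg and 0.06 ± 0.30 for Dexa. With the 3 libraries numbered 1 left out together, an alternative chosen after the data were seen, it was 2.25 for IFNg. The TPM ratio of Il15ra to Il15 was 8.33 to 15.8 in Ctr-OPCs and 5.79 to 9.93 in IFN-γ-treated OPCs, overlapping ranges. Il15ra and Il15, summed over all their transcripts, were thus both higher under IFN-γ without a separation of their ratio.

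Il15ra reads were spread over many of its 18 annotated transcripts, some of them not annotated as coding. ENSMUST00000124448, annotated as retaining an intron, held a mean of 20.4% of the reads in Ctr-OPCs and 25.2% under IFN-γ. The level of the gene is thus not that of coding transcripts alone. The transcript with most reads in Ctr-OPCs, ENSMUST00000128156, held 30.4% ± 4.68 (SD, n = 4) of them in Ctr-OPCs and 28.2% ± 5.84 (SD, n = 4) under IFN-γ, a difference within the spread between libraries (exact permutation test, p = 0.543, adjusted p = 0.543).

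Lif and Csf1 are growth factors whose messenger RNA was also higher under IFN-γ. Lif, an IL-6 family cytokine known to favour the survival of oligodendrocytes, lies on chromosome 11 from 4257557 to 4272514 (plus strand, ENSMUSG00000034394). Its normalized counts were 10.1, 21.1, 20.0 and 10.9 in Ctr-OPCs, 17.3, 21.9 and 17.5 in Dexa-treated OPCs and 143, 93.5, 99.1 and 95.0 in IFN-γ-treated OPCs. The IFN-γ libraries did not overlap with either of the other groups, and replicate 1 stood above the other 3 IFN-γ libraries. In the fit the log2 fold change was 2.75 ± 0.30 (SE) for IFNg and 0.26 ± 0.37 for Dexa. Lif was the only one of the 10 genes listed in the incomplete table of Dexa replicate 3, with 4 reads and a TPM of 0.0397, against a TPM of 0.0905 to 0.191 in the other 3 Dexa libraries.

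Csf1, the macrophage and microglia growth factor, was higher in every IFN-γ library by several fold. It lies on chromosome 3 from 107741048 to 107760469 (minus strand, ENSMUSG00000014599). Normalized counts were 751, 699, 462 and 588 in Ctr-OPCs, 978, 928 and 681 in Dexa-treated OPCs and 4344, 4201, 3888 and 3993 in IFN-γ-treated OPCs. All IFN-γ libraries were above all others, and the Dexa libraries overlapped with Ctr through replicate 4. The log2 fold change was 2.72 ± 0.17 (SE) for IFNg and 0.47 ± 0.19 for Dexa. Within replicate numbers Dexa was 1.30, 1.33 and 1.16 times Ctr in replicates 1, 2 and 4, the same direction in 3 of 3 pairs. Most Csf1 reads fell on 1 transcript, ENSMUST00000014743, with 4120, 4154, 3159 and 2876 reads in IFN-γ-treated OPCs.

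Il34, the second ligand of CSF1R, was low, and was the only one of the 10 genes with every Dexa library above every Ctr library. It lies on chromosome 8 from 110741829 to 110805924 (minus strand, ENSMUSG00000031750) and overlaps Gm15894 and Gm15895 on the opposite strand. Normalized counts were 18.4, 31.6, 22.7 and 19.6 in Ctr-OPCs, 43.2, 40.4 and 59.4 in Dexa-treated OPCs and 62.6, 45.3, 42.0 and 39.8 in IFN-γ-treated OPCs. The treated groups overlapped with each other and not with Ctr. Log2 fold changes were 1.02 ± 0.28 (SE) for IFNg and 0.99 ± 0.30 for Dexa. Without the 3 libraries numbered 1 the change under IFN-γ was 0.77 on the log2 scale and no longer passed the threshold of the fit.

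Il34 reads also fell on different transcripts. In Ctr-OPCs 65.3% to 92.6% of them were assigned to ENSMUST00000154803, a processed transcript of 675 bases that is not annotated as coding, against 22.1% to 53.5% in IFN-γ-treated OPCs. The coding transcript ENSMUST00000076846 held 6.22, 15.8, 1.45 and 2.05 estimated reads in Ctr-OPCs, 12.7, 14.5 and 8.49 in Dexa-treated OPCs and 29.6, 26.4, 18.9 and 14.4 in IFN-γ-treated OPCs. With 18 reads in Ctr replicate 4, Il34 was under the minimum of 20 reads for the test of shares. The TPM ratio of Csf1 to Il34 was 2.37 to 6.69 in Ctr-OPCs, 2.03 to 3.71 in Dexa-treated OPCs and 17.5 to 25.7 in IFN-γ-treated OPCs. The IFN-γ libraries lay above all others in this ratio. It rests in part on the transcripts assigned to Il34, since the short non-coding transcript gives a higher TPM for the same reads. The ratio of normalized counts was 20.3 to 40.9 in Ctr-OPCs, 11.5 to 23.0 in Dexa-treated OPCs and 69.4 to 100.3 in IFN-γ-treated OPCs.

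Il33, a nuclear alarmin that oligodendrocytes are known to make, followed the replicate number more than the treatment. It lies on chromosome 19 from 29925114 to 29960718 (plus strand, ENSMUSG00000024810). Normalized counts were 118, 38.4, 34.4 and 24.98 in Ctr-OPCs, 104, 43.8 and 38.4 in Dexa-treated OPCs and 58.6, 49.1, 43.1 and 25.7 in IFN-γ-treated OPCs. Replicate 1 was the highest and replicate 4 the lowest in each group, and the groups overlapped. Log2 fold changes were -0.29 ± 0.53 (SE) for IFNg and 0.20 ± 0.57 for Dexa. The IFN-γ library held 0.495 times the normalized count of its Ctr partner in replicate 1 and 1.28, 1.25 and 1.03 times in replicates 2, 3 and 4. Its sign turned with the libraries used, from -0.52 (without Ctr replicate 4) to 0.43 (without Ctr replicate 1) under IFN-γ and from -0.39 (without Dexa replicate 1) to 0.93 (without Ctr replicate 1) under Dexa, and was 0.27 under IFN-γ without the libraries numbered 1.

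Il6 and Tnf, both inflammatory cytokines, were at or next to 0. Il6 (ENSMUSG00000025746, chromosome 5, 30013114 to 30019981, plus strand) had 0 reads in every Ctr library, 4 reads in Dexa replicate 1 and 1 read in IFNg replicate 1. Tnf (ENSMUSG00000024401, chromosome 17, 35199381 to 35202007, minus strand) had 2 reads in Ctr replicate 2, 1 in Dexa replicate 2 and 2 in IFNg replicate 2, and 0 in the other libraries. A count of 0 allows up to 3 reads, or an RPM (reads scaled to the library total) of 0.0576 to 0.156 in these libraries. No change of either gene was detectable at this depth, and no fold is given.

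**Figure D2:**
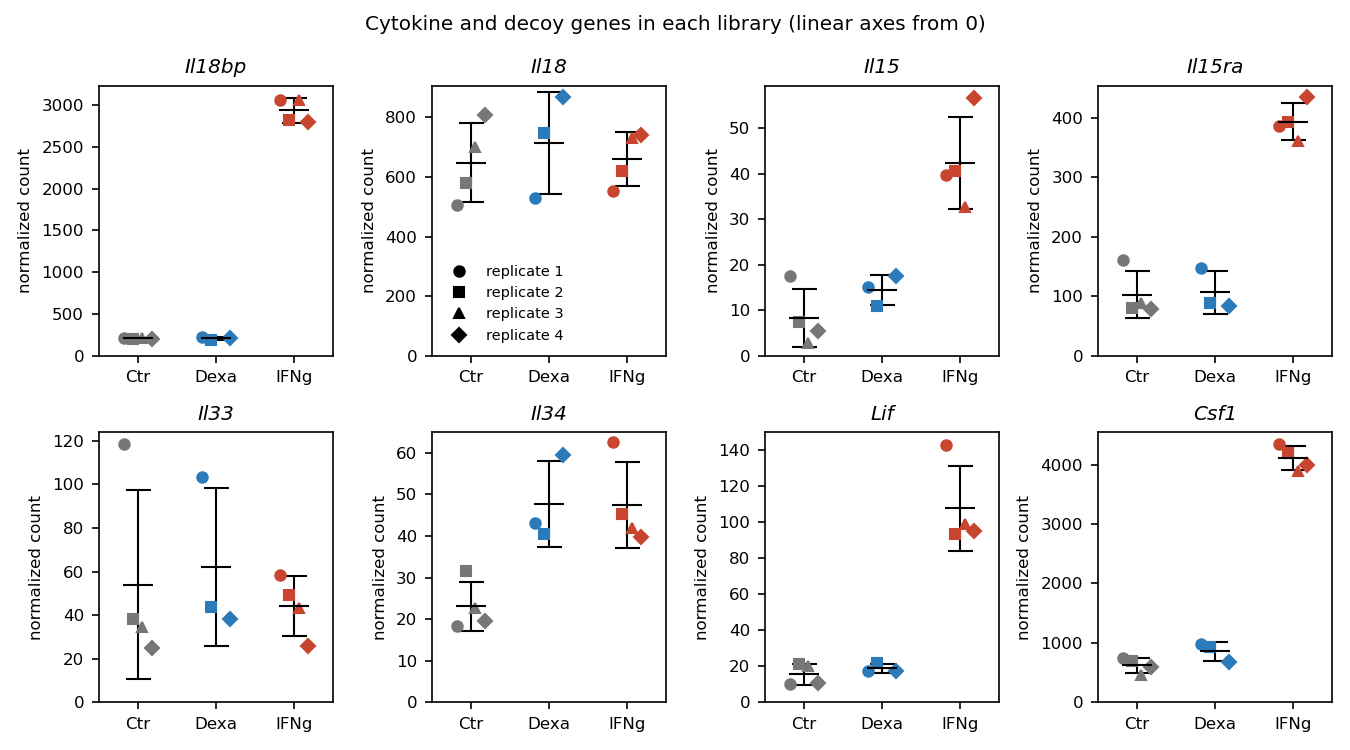
Normalized counts of the 8 genes with enough reads in each library, with replicate numbers as symbols, the group mean as a horizontal line and the SD as an error bar. Il18bp, Il15, Il15ra, Lif and Csf1 have all 4 IFNg libraries above all Ctr and Dexa libraries, Il34 has IFNg and Dexa above Ctr, and Il18 and Il33 overlap in all groups.

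Of the 10 genes, 8 passed the filter on low counts (at least 10 reads in at least 4 libraries). The fit over all genes called 6 of these 8 higher under IFN-γ (Il18bp, Il15, Il15ra, Il34, Lif and Csf1), beside 8.02% of all 17919 genes tested. In normalized counts the same 6 had every IFN-γ library above every Ctr library, beside 8.66% of all genes tested. Since the genes were picked with these values in view, nothing is read from either count. In the fit for Dexa, 0 of the 8 were called by DESeq2 and 0 by edgeR, beside 0.547% of all genes tested by DESeq2, and 2 of the 8 (Il34 and Csf1) had an unadjusted p under 0.05. Of the 8, 1 (Il34) had every Dexa library above every Ctr library, beside 2.58% of all genes. With the replicate number as a block, DESeq2 called Csf1 higher in Dexa (log2 fold change 0.40), and edgeR with the same block did not.

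**Figure D3:**
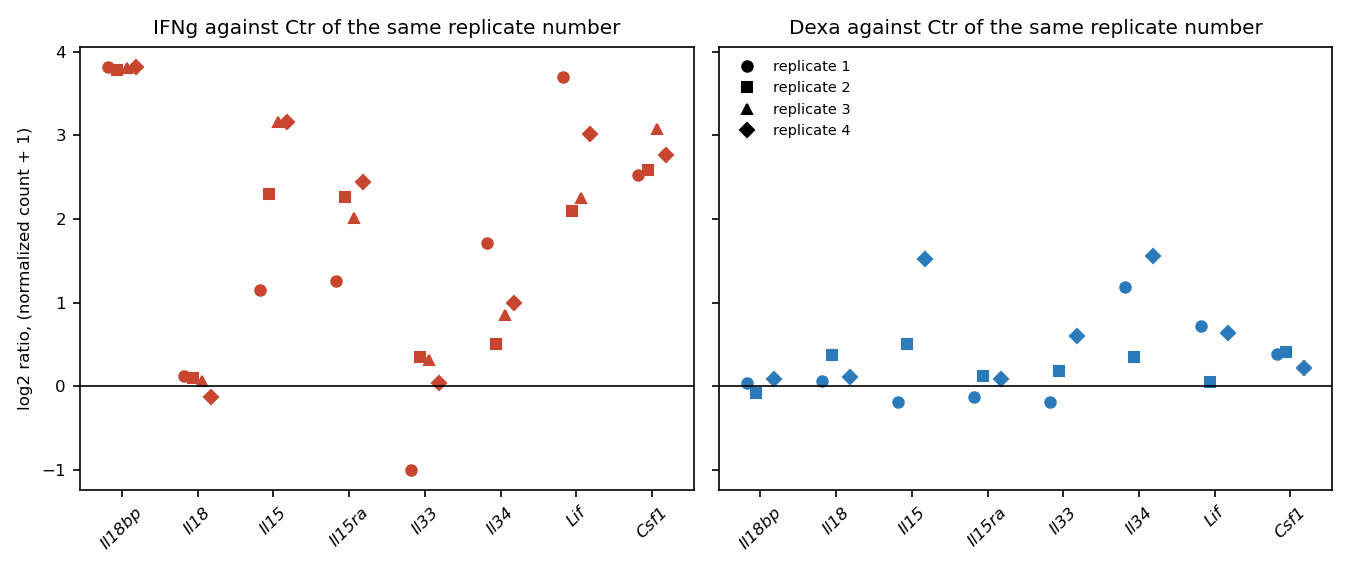
Log2 ratio of the treated library to the Ctr library of the same replicate number, from normalized counts plus 1, for IFNg (left, 4 pairs) and Dexa (right, 3 pairs). The 4 IFNg ratios of Il18bp lie between 3.78 and 3.82, whereas those of Il15 run from 1.14 to 3.16 and those of Lif from 2.10 to 3.70.

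Levels were ranked among the genes by TPM, summed over all annotated transcripts of a gene, non-coding ones included. In Ctr-OPCs Il18 led with 19.5 ± 4.02 (SD, n = 4), followed by Csf1 with 3.22 ± 0.753, Il18bp with 1.96 ± 0.212 and Il15ra with 1.54 ± 0.502. Il34 (0.854 ± 0.236), Il33 (0.417 ± 0.303), Il15 (0.151 ± 0.0851) and Lif (0.0983 ± 0.0605) lay lower. The library values of Il18bp and Il15ra overlapped, and so did those of each neighbouring pair from Il34 to Lif. In IFN-γ-treated OPCs Il18bp led with 47.9 ± 3.996, and Csf1 (24.0 ± 3.18) and Il18 (22.0 ± 3.18) overlapped in the next place. Il15ra followed with 6.72 ± 1.39, and then Il34 (1.19 ± 0.201), Lif (1.06 ± 0.264), Il15 (0.853 ± 0.243) and Il33 (0.422 ± 0.171), each overlapping with the next.

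**Figure D4:**
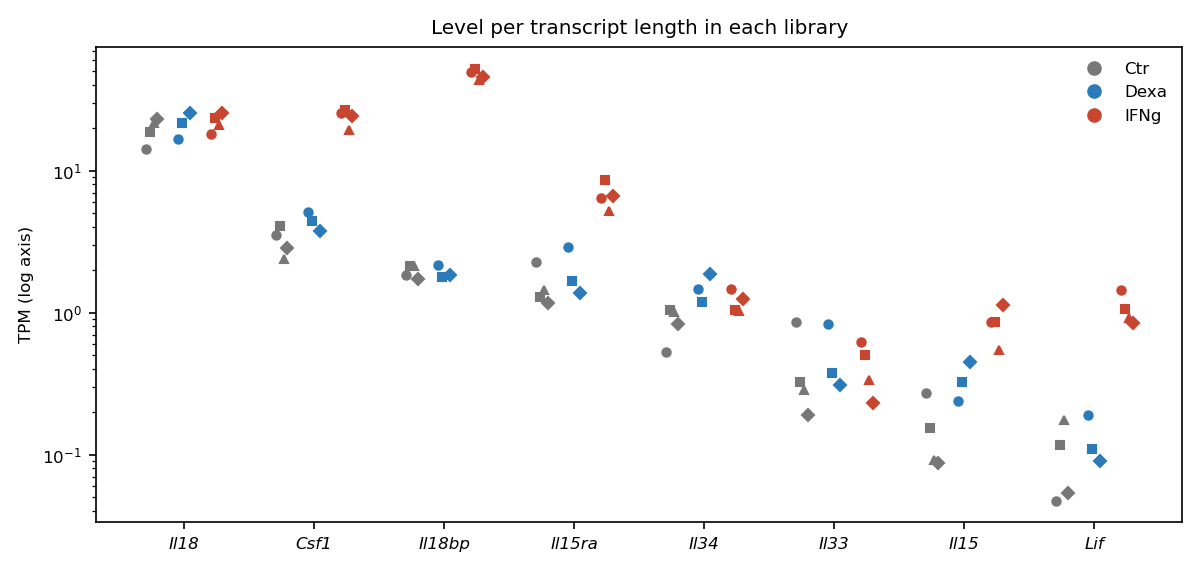
TPM of 8 genes in each library on a log axis, ordered by their mean in Ctr-OPCs, with colours for the groups and the replicate symbols of the other plots. Il18 stays between 14.1 and 25.5 in all libraries, while Il18bp moves from between 1.72 and 2.14 in Ctr-OPCs to between 43.4 and 52.4 under IFN-γ.

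The genes with the most similar pattern were named by Pearson's r of log2 (normalized count + 1) over all 11 libraries. These correlations describe libraries that share treatment and litters. Il18bp was followed most closely by Gbp2 (r = 0.9997) and Igtp (r = 0.999), both interferon-inducible GTPases. Csf1 was close to H2-K1 (r = 0.994), an MHC class I gene, and Il15ra by Pml (r = 0.992) and Plekha2 (r = 0.992). Lif was nearest to Tnfaip2 (r = 0.989) and Lgals9 (r = 0.981), and Il15 to Il7 (r = 0.957) and Pdzph1 (r = 0.954). Lower values were found for Il34 with D130043K22Rik (r = 0.933) and Tor4a (r = 0.883), and for Il33 with Scarf2 (r = 0.927) and Adamts7 (r = 0.918). Il18, which did not follow the treatment, was nearest to Dlg3 (r = 0.977) and Sgtb (r = 0.972).

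The receptors of these cytokines ranged from chains at or near 0, through chains with few reads, to chains with many reads. Of 16 receptor and co-receptor genes, 10 were tested and 5 were called higher under IFN-γ by DESeq2 and by edgeR, with 0 lower, beside 12.8% of all genes called in either direction by DESeq2 and 8.44% by edgeR. With the replicate block both tools called 7 of the 10 higher, adding Il1rap, the accessory chain of the IL-1 family, and Sdc1, a cell-surface proteoglycan, beside 29.2% of all genes called by DESeq2 with the block. The median log2 fold change of the 10 was 0.84, against -0.02 over all genes tested. The gene lists, like the 10 genes, were chosen with results of these data known, so nothing is read from the counts or medians of this list or of those that follow. For the same reason the adjusted p-values printed for single list genes are descriptions and not separate support. The IL-18 receptor chains Il18r1 and Il18rap, the IL-33 receptor Il1rl1 and the IL-2 and IL-15 receptor chain Il2rb had at most 5 normalized counts in any library and were not tested. Il2rg, the common γ chain, had 0 reads in all Ctr libraries and 2.83 to 9.94 normalized counts in the IFN-γ libraries, and was not tested either.

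The 5 chains called without the block are receptors of IL-6 family cytokines and of TNF. Osmr, the oncostatin M receptor, had a log2 fold change of 2.90 ± 0.35 (SE) and rose from a range of 8.95 to 12.4 normalized counts in Ctr-OPCs to one of 53.9 to 112 (adjusted p = 9.44e-15, DESeq2). Il6ra, the IL-6 receptor α chain, rose by 2.84 ± 0.47, from a range of 2.17 to 6.82 normalized counts to one of 22.1 to 54.6 (adjusted p = 3.85e-08, DESeq2). Lifr, the receptor of LIF, rose by 1.31 ± 0.29, from a range of 2372 to 4806 to one of 6478 to 9546 (adjusted p = 1.21e-04, DESeq2), while Il6st, the signalling chain they share, was at 3577 to 4377 in Ctr-OPCs and 3828 to 4953 under IFN-γ. Tnfrsf1b and Tnfrsf1a, both receptors of TNF, rose by 4.55 ± 0.64 and 1.13 ± 0.15. Tnfrsf1b had 1 to 6 reads in the Ctr libraries, a range of 0.689 to 6.5 normalized counts, and 26.8 to 80.9 normalized counts under IFN-γ. It passed the filter on low counts only through the IFN-γ libraries, so no p-value is printed for it. Tnfrsf1a ranged from 703 to 970 in Ctr-OPCs and from 1727 to 2065 under IFN-γ (adjusted p = 1.56e-12, DESeq2). Csf1r, the receptor of CSF1 and IL-34 and a microglial marker, had 3.67 to 11.2 normalized counts in Ctr-OPCs and 5.83 to 10.9 under IFN-γ, with a log2 fold change of 0.19 ± 0.49. In the Dexa comparison 0 of the 10 receptor genes were called by DESeq2 or by edgeR, and 2 had an unadjusted p under 0.05.

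Casp1 and Gsdmd, which act on the maturation and release of IL-18, rose under IFN-γ, and so did 3 other genes of their list. Of 11 genes for maturation and shedding, 8 were tested, 5 were called higher by DESeq2 and 4 by edgeR, with 0 lower, beside 12.8% and 8.44% of all genes called in either direction, and their median log2 fold change was 1.44. With the replicate block 1 gene, Adam17, was also called lower by both tools. Casp1, the protease that cleaves IL-18, rose by 6.20 ± 0.28 (SE), from a range of 7.58 to 19.8 normalized counts in Ctr-OPCs to one of 739 to 1193 (adjusted p = 2.61e-105, DESeq2). Gsdmd, the pore through which IL-18 can leave a cell, rose by 4.58 ± 0.31, from a range of 10.9 to 34.0 to one of 436 to 463 (adjusted p = 1.25e-46, DESeq2). Casp4, an inflammatory caspase, had at most 2 reads in each Ctr library and was at least 18.4-fold higher under IFN-γ against the floor of 3 reads per library. Casp4 passed the filter on low counts only through the IFN-γ libraries, so no p-value is printed for it. Rhbdf2, which carries the shedding protease ADAM17 to the surface, rose by 2.33 ± 0.45 (adjusted p = 5.23e-06, DESeq2), and Adam10, another shedding protease, by 0.23 ± 0.07 (adjusted p = 0.0059, DESeq2, and 0.0617 by edgeR). The inflammasome genes Nlrp3 and Nlrp1b had at most 3 normalized counts in any library. Aim2, another inflammasome sensor, had 2.17 to 5.58 normalized counts in Ctr-OPCs and 7.95 to 17.97 under IFN-γ, without overlap, and was too low to be tested. Pycard, their adaptor, was at 45.6 to 55.1 in Ctr-OPCs and 53.6 to 90.4 under IFN-γ (adjusted p = 0.0592, DESeq2). In the Dexa comparison 0 of the 8 were called by DESeq2 or by edgeR, and 1 (Casp1) had an unadjusted p under 0.05. Casp1 also had every Dexa library (20.2 to 25.9 normalized counts) above every Ctr library, beside 2.58% of all genes tested.

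**Figure D5:**
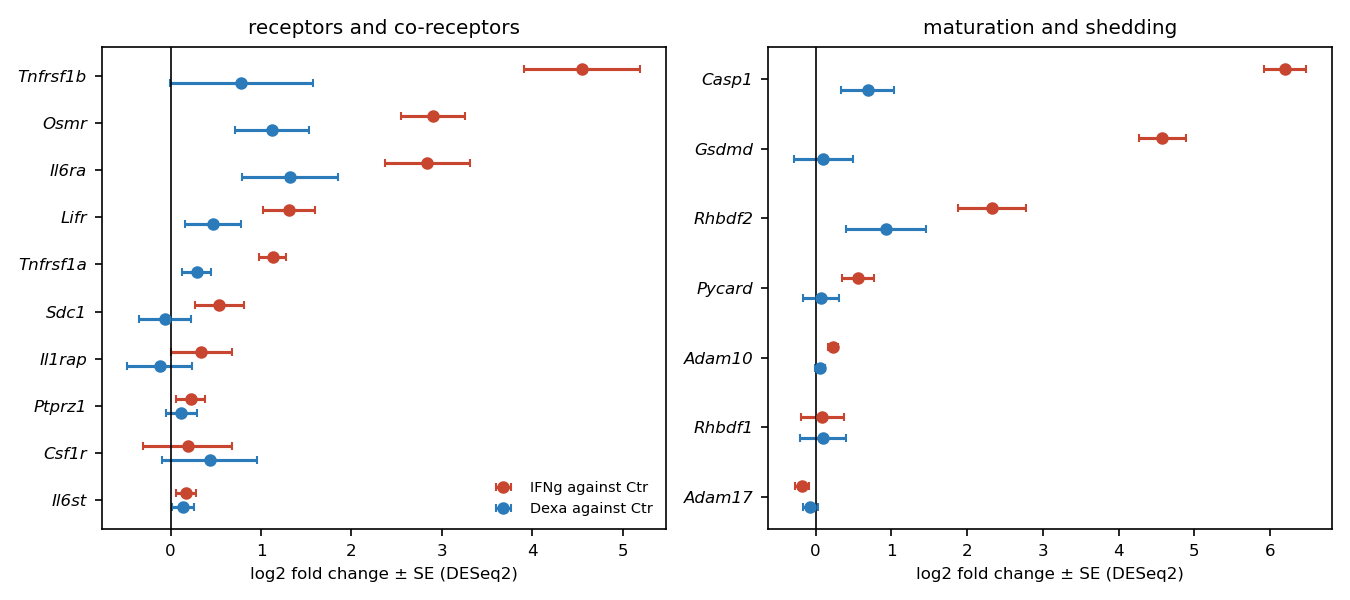
Log2 fold changes with their SE (DESeq2) of the tested receptor genes (left) and of the tested maturation and shedding genes (right), for IFNg and Dexa against Ctr. Casp4 is left out because its Ctr libraries are at the floor, and Casp1 (6.20), Gsdmd (4.58) and Tnfrsf1b (4.55) lie farthest to the right under IFN-γ. The Ctr libraries of Tnfrsf1b, with 1 to 6 reads, are near the floor.

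Most other cytokines had few or no reads. Of 31 further cytokine genes, 12 had enough reads to be tested, 4 were called higher and 1 lower by DESeq2, and 3 by edgeR, beside 12.8% and 8.44% of all genes, with a median log2 fold change of 0.30. Tnfsf10, the gene of TRAIL, had at most 2 reads in each Ctr library and was at least 178-fold higher under IFN-γ against the floor of 3 reads (adjusted p = 3.58e-22, DESeq2). Il7, a lymphocyte growth factor, rose by 4.02 ± 0.65 (SE) and Tnfsf13b, the gene of BAFF, which sustains B cells, by 3.03 ± 0.44 (adjusted p = 2.23e-08 and 2.62e-10, DESeq2). Clcf1, an IL-6 family cytokine, rose by 1.85 ± 0.65 (adjusted p = 0.0386, DESeq2, and 0.085 by edgeR). The 1 lower gene was Il17d, with a log2 fold change of -0.82 ± 0.29, and its groups overlapped (adjusted p = 0.0369, DESeq2, and 0.105 by edgeR). Il1b, Il10, Il12a, Il12b, Il27, Osm and Ifng itself had at most 2 normalized counts in any library.

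Of 8 other soluble antagonists, 3 were tested, and 2 were called lower by DESeq2 and 1 by edgeR, with 0 higher, beside 12.8% and 8.44% of all genes. Tnfrsf22, a mouse decoy receptor for TRAIL, fell by 0.69 on the log2 scale with a standard error of 0.22 (adjusted p = 0.018, DESeq2, and 0.0821 by edgeR). Tnfrsf11b, the gene of the decoy osteoprotegerin, had 5.51 to 46.7 normalized counts in Ctr-OPCs and 8.94 to 16.3 under IFN-γ (adjusted p = 0.622, DESeq2). Il1rn and Il1r2, the antagonist and the decoy receptor of IL-1, had at most 8 normalized counts in any library. In the Dexa comparison 0 of the 12 other cytokines and 0 of these 3 genes were called by DESeq2 or by edgeR, and 0 had an unadjusted p under 0.05.

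Marker genes of the cell types were set beside these results. Of the 8 OPC markers, 0 were called under IFN-γ by DESeq2 or by edgeR, and 1 had an unadjusted p under 0.05 in DESeq2 and 0 in edgeR. With the replicate block both tools called 4 lower, and DESeq2 gave log2 fold changes of -0.61 for Pdgfra, -0.60 for Cspg4, -0.56 for Sox10 and -2.09 for Gpr17. Among the 8 astrocyte markers, Gfap (log2 fold change 3.82 ± 0.59, SE) and Aldoc (0.78 ± 0.28) rose under IFN-γ (adjusted p = 3.98e-09 and 0.0399, DESeq2, and 0.0033 and 0.0985 by edgeR). S100b (-1.60 ± 0.88), Aqp4 (-1.02 ± 0.51) and Gja1 (-0.35 ± 0.61) had negative values that were not called without the block and were called lower by both tools with it, with log2 fold changes of -1.53, -0.81 and -0.36 in DESeq2. With the block Aldh1l1 was also called higher by both tools, and Slc1a3 by DESeq2. The 8 vascular and leptomeningeal markers summed to 88.1 to 207 normalized counts in Ctr-OPCs, 99.3 to 221 in Dexa-treated OPCs and 80.5 to 279 in IFN-γ-treated OPCs. Of these, 7 were tested, and 1, Lum, a proteoglycan gene of fibroblasts, was called higher, from a range of 0.918 to 21.4 normalized counts in Ctr-OPCs to one of 18.9 to 166.7 under IFN-γ, which overlap (log2 fold change 3.86 ± 0.91, adjusted p = 3.48e-04, DESeq2, and 0.0224 by edgeR). With the block Kdr was also called lower by both tools, and Dcn by edgeR. The microglial markers C1qa, C1qb, C1qc, Aif1, Cx3cr1, Trem2 and Tyrobp had at most 6 normalized counts in any library (the range of the summed list is given above). Others of the list were higher. P2ry12 had 9.18 to 21.4 normalized counts in Ctr-OPCs, 10.8 to 26.2 in Dexa-treated OPCs and 19.8 to 27.0 under IFN-γ, which overlap (log2 fold change under IFN-γ 0.33 ± 0.36). Tmem119 reached 8.95 in a Ctr library and 8.16 in an IFN-γ library. In the Dexa comparison 0 of the tested markers were called by DESeq2 or by edgeR without the block. Aldoc had every Dexa library (14610 to 23170 normalized counts) above every Ctr library (5205 to 14050), beside 2.58% of all genes tested. With the block both tools called Cspg4 (log2 fold change 0.65) and Aldoc (0.98) higher under Dexa, and DESeq2 also Gfap (1.64). The part of these marker changes in the levels of the 10 genes was not tested.

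The promoter windows of RefSeq (GRCm38.p6, 250 bases before to 50 after a start site) covered 8 of the 10 genes in 10 windows. Il15 and Il34 are named only. Windows were searched on both strands. The longer interferon-response motif GAAANNGAAA occurred in 3.44% of all 32851 windows and in 0 of the 10, and the shorter GAAANNGAA, which every longer match contains, in 8.56%. The NF-κB motif GGGNNTTTCC occurred in 1.63%.

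Matches fell in windows of Il15ra, Csf1 and Il6. They are shown, with the matched bases in capitals and read along the gene's strand, because Il15ra and Csf1 were higher under IFN-γ and Il6 was at or near 0. The 2 Il15ra matches are to GAAANNGAA, the first on the opposite strand at -149 bases from a start site at 11705293 (chr2:11705129-11705167, plus strand) and the second 30 bases after another start site at 11705712 (chr2:11705733-11705759). The matches of Csf1 (chr3:107760599-107760638, minus strand) and Il6 (chr5:30013055-30013094, plus strand) are to GGGNNTTTCC. That of Csf1 is on the strand opposite to the gene at -154 bases, and that of Il6 on the gene's own strand at -44 bases.
Il15ra, first start site: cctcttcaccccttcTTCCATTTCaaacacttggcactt
Il15ra, second start site: agcaaaagcGAAAGCGAAtactcctta
Csf1: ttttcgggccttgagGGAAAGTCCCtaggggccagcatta
Il6: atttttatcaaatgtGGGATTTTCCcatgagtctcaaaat
A match describes the letters of the window and not a bound site. The windows of Il18bp, Il18, Il33, Tnf and Lif held none of these letters, which says nothing about sites outside the 300 bases.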

How the data were processed

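Total RNA was sequenced as stranded paired-end libraries. The authors quantified trimmed reads per transcript with Salmon 0.8.2 and deposited, for each library, estimated counts and TPM. The library type given to Salmon is not stated in the sources used here, so reads of genes that overlap on opposite strands may be mixed. Transcript identifiers matched GENCODE M21 (GRCm38), which gave the genes. The authors' 3 deposited tables of fold changes and p-values were not used, and the incomplete table of Dexa replicate 3 entered no fit.

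The members and gene lists were chosen with earlier results of these data known. Estimated counts were summed per gene and rounded, and the 17919 genes reaching 10 counts in 4 or more of the 11 libraries were tested. DESeq2 1.42.0 (R 4.3.3, Wald test on the group, Benjamini-Hochberg adjusted p under 0.05) was the main test, as in the study. In simulated counts DESeq2 made more false calls than its threshold allows and edgeR (4.0.16, quasi-likelihood) did not, so calls of edgeR are given beside it. The simulation held no effect of the replicate number and changed fewer genes than either tool called here. Its rates of false calls need not hold for these libraries. From each list, up to 5 genes called under IFN-γ with groups that did not overlap were named. Il17d, the marker genes other than Gfap and Aldoc, genes called only with the block, and list genes named for their low or unchanged reads, were named after their values were seen. Some genes and a motif that these rules named are not reported here.

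With each group's mean taken away, log2 values correlated over genes at 0.404 to 0.722 in all 10 pairs of libraries with the same replicate number, and at -0.614 to 0.495 in the other 30 pairs. The numbers therefore pair the libraries, and fits with the number as a block were alternatives. Transcript shares were compared by an exact permutation test over libraries, for genes with at least 20 reads in each library and at least 10% of reads on a second transcript. Floors cover counting error only, and PCR copies were not told apart.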

Additional observations from a re-analysis of the deposited data

Results flagged for a closer look

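In 3 of 16 groups of 4 libraries, the normalized count of 1 library lay far from the other 3 by Dixon's ratio, where chance gives about 1 in 20 groups. Ctr replicate 1 was high for Il15ra (162) and for Il33 (118), and IFNg replicate 1 was high for Lif (143). All 3 come from libraries numbered 1. The Dexa library of that number was also the highest of its group for Il15ra and Il33, but groups of 3 were not examined this way. The log2 fold changes under IFN-γ without the 3 libraries numbered 1 were 2.25 for Il15ra, 0.27 for Il33 and 2.43 for Lif.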

How the results depend on the processing

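The log2 fold changes of the 8 genes moved by less than 1 SD between libraries under all 17 alternatives, but that SD is wide for Il33, whose sign turned (-0.52 to 0.43 under IFN-γ and -0.39 to 0.93 under Dexa), and for Il15 (2.07 to 3.04 under IFN-γ). The calls of Il18bp, Il15, Il15ra, Lif and Csf1 under IFN-γ held throughout, and that of Il34 was lost only without the 3 libraries numbered 1. In the Dexa comparison 1 gene was called with the replicate block in DESeq2 (Csf1), and leaving out 1 library gave 0 to 1 (Il34 without Ctr replicate 2).

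Over all genes, 2302 were called under IFN-γ by DESeq2, 1513 by edgeR, 5238 with the replicate block in DESeq2 and 5606 with it in edgeR. For Dexa these counts were 98, 22, 460 and 282, and 59 to 112 without 1 library (63 without Dexa replicate 1, 59 without Dexa replicate 2). Of the other cytokines edgeR called 3 under IFN-γ, and 2 were called without the libraries numbered 1. Leaving out 1 library gave 1 to 5 of them, with 1 without IFNg replicate 1 or IFNg replicate 4, 2 without IFNg replicate 2 or IFNg replicate 3, and 3 without Ctr replicate 3 or Ctr replicate 4. Of the soluble antagonists edgeR called 1, and leaving out 1 library gave 1 (Ctr or IFNg replicate 3 or 4) to 2. The causes were not tested. The block changed no call of the named genes that DESeq2 made without it.

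The fall in the share of Il18bp-202 was -56.8 percentage points in pairs too, where the replicate block (sign flips over 4 pairs) cannot give a p under 0.125 (exact p = 0.125). Leaving out 1 library gave -58.7 to -55.4 points for Il18bp. For Il18 it gave 6.45 to 10.05, with an exact p of 0.0286 without Ctr replicate 3. At a minimum of 10 reads Il34 entered with a share of 76.7% in Ctr-OPCs and 38.6% under IFN-γ (exact permutation p = 0.0286, adjusted p = 0.0571 over 4 genes). Depth limits Il6, Tnf and Il15 most.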
